A study of Mus musculus with 16 samples.

Results

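The expression of 10 JAK-STAT pathway genes was followed in RAW264.7 cells, an established mouse macrophage-like line: the kinase genes Jak1, Jak2, Jak3 and Tyk2, the transcription factor genes Stat3, Stat5a and Stat6, and the inhibitor genes Socs1, Socs3 and Cish. The genes were listed by name and role, and 9 of the 10 had a probe set that names no other gene, among 18820 genes measured that way. The probe set for Jak3 also names Insl3, so Jak3 was not analysed here. Cells were exposed for 24 h to vehicle (0.1% ethanol by volume, the control), to 1 µM DHA5HT (docosahexaenoyl serotonin, in which the omega-3 fatty acid DHA is joined to serotonin), to 1 µg/ml LPS (lipopolysaccharide, a bacterial cell wall component) or to LPS and DHA5HT at those concentrations (LPS+DHA5HT), with 4 arrays in each group. The labels name no genetic change, and all groups came from 1 cell line. Cells given LPS alone also received vehicle, per the labels' protocols.

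JAK kinases sit on the inner side of cytokine receptors and phosphorylate STAT proteins once a cytokine binds. STAT proteins then enter the nucleus and switch on target genes, among them the SOCS genes, whose products bind receptors and kinases and shut the signal down. In macrophages STAT3 carries signals of the IL-6, IL-10 and IL-23 receptors, STAT5 those of the receptor for the growth factor GM-CSF, and STAT6 those of the IL-4 and IL-13 receptors. SOCS3 is known as the brake on IL-6 signalling, SOCS1 as the brake on interferon signalling, and CISH as a brake on STAT5 signalling.

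The promoters of the 3 inhibitor genes are shown, the only ones among the 10 genes with a match to the patterns below. All 3 rose with LPS, as did Jak2, Stat3 and Tyk2, whose windows held no match. The windows run from 250 bases before to 50 bases after the annotated start in RefSeq (build GRCm38.p6), and each of the 10 genes had at least 1. Capitals mark matches, on either strand, to TTCNNNGAA, a pattern known for STAT dimers, or to 2 copies of TTTC with 2 bases between them, a pattern known for interferon regulatory factors. A further pattern, TTC and GAA with 4 bases between them, which STAT6 is known to prefer, had no match in the windows of the 10 genes and at least 1 in 6.95% of all windows.
Socs3, chr11:117969317-117969616, minus strand: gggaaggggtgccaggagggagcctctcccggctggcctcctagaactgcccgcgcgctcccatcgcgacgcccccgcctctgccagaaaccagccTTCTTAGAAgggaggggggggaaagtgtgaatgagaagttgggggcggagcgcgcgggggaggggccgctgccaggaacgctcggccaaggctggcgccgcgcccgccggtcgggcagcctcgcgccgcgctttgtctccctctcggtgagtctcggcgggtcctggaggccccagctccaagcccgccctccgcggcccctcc
Cish, chr9:107296409-107296708, plus strand: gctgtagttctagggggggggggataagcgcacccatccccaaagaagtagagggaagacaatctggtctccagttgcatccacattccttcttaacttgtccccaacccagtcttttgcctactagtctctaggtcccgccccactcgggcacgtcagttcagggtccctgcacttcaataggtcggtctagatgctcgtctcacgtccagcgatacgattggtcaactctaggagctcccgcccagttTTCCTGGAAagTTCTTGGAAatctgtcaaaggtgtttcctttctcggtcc
Socs1, chr16:10785487-10785786, minus strand: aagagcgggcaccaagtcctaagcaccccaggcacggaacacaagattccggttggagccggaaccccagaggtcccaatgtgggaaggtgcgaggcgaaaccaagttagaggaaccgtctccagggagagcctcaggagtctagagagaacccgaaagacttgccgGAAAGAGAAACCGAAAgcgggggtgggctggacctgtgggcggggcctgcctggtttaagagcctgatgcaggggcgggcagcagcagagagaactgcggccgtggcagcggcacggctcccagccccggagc

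The Socs3 window held 1 match to TTCNNNGAA, which began 154 bases before the start. The Cish window held 2 such matches, which began at bases 1 and 12 counted from the start. Of 32851 promoter windows of the same length, 8.30% held at least 1 match to TTCNNNGAA and 0.457% held at least 2. The Socs1 window held 2 overlapping matches to the interferon regulatory factor pattern, which began 83 and 77 bases before the start. At least 2 matches to that pattern occurred in 0.225% of the windows and at least 1 in 3.44%. No match to these 3 patterns was found in the windows of the 4 kinase and 3 STAT genes. A match describes letters in this window, and binding was not measured.

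The values are log2 intensities from RMA, a method that corrects background, normalizes arrays to each other and gives 1 value per probe set, so a difference of 1 is a doubling. Values after ± are SD over the 4 arrays of a group. Markers of lymphocytes, epithelial cells and fibroblasts (19 measured), which macrophages should lack, had a median of 3.89, and the median gene lay at 5.24. All 10 macrophage markers lay above 3.89 on every array, the dimmest value being 6.73. The array medians of the lymphocyte markers stayed between 3.28 and 3.75 and those of the epithelial and fibroblast markers between 4.20 and 4.67 over all groups. Array 4 of LPS+DHA5HT stood apart on the second principal component (4.72% of the variance), at −22.4 where the rest lay between −9.36 and 10.0. The treatment label of LPS+DHA5HT array 1 names DHA5HT alone while its title names both agents. For the 136 genes with an LPS change of at least 4-fold, that array lay at the median 83.8% of the way from control to LPS, against 78.5% to 90.8% for the others of its group. Values without array 1 or array 4 of that group are given below beside the results they moved most.

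**Figure D1:**
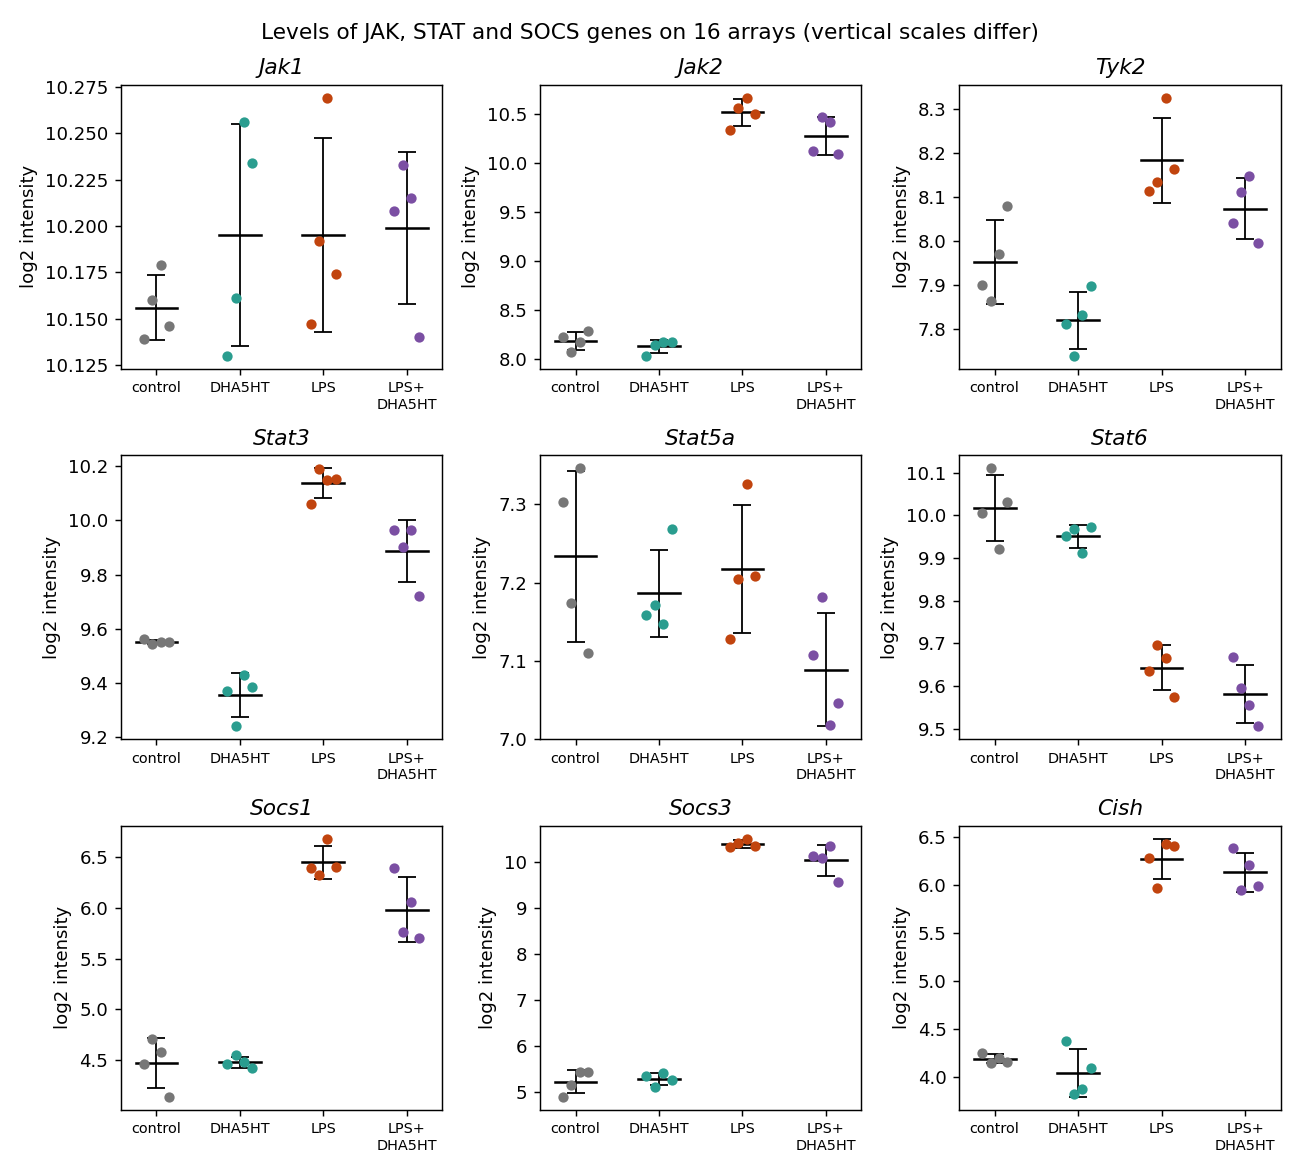
Log2 intensity of each of the 9 genes (vertical axis, scales differ between panels) on the 16 arrays, in the 4 groups (horizontal axis). Points are arrays, horizontal lines means and bars SD. Jak2, Stat3, Socs1, Socs3 and Cish, and downward Stat6, separate the groups with LPS from those without it. In the Stat3 panel each group with DHA5HT lies below its counterpart.

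LPS against control asked how the pathway's own transcripts responded to the bacterial stimulus. The 3 inhibitor genes and the kinase gene Jak2 rose most, Stat3 and Tyk2 rose by smaller amounts, Stat6 fell, and Jak1 and Stat5a did not pass the test. In limma, with p values adjusted over all 18820 genes and a threshold of 0.05, 6 of the 9 genes rose and 1 fell, where 12.6% of all genes rose and 15.8% fell. The 7 genes were also those whose control and LPS arrays did not overlap, which held for 13.7% of all genes upward and 16.1% downward. The median change of the 9 genes was 0.59 and that of all genes 0.00. Among genes brighter than the median gene, to which 8 of the 9 belong, 20.9% rose and 28.6% fell. The array medians of the macrophage markers were 11.37 to 11.54 in controls and 11.60 to 11.66 with LPS, with 6 of 10 markers higher and 2 lower, and their part in these changes was not tested. In bulk RNA, fewer cells of a type and less RNA per cell cannot be told apart.

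Among the kinases, Jak2, which serves the receptors for GM-CSF, interferon gamma and IL-23, read 8.22, 8.07, 8.17 and 8.29 on the control arrays and 10.34, 10.56, 10.67 and 10.51 on the LPS arrays. Every LPS array lay more than 2 log2 units above every control array. The change was 2.33 (SE 0.09), a 5.04-fold increase (adjusted p = 2.58e-12), and 0.484% of all genes had a larger one. Tyk2, which serves the receptors for type I interferons, IL-10 and IL-23, read 7.90, 7.86, 7.97 and 8.08 in controls and 8.11, 8.13, 8.32 and 8.16 with LPS. Its groups did not overlap, with a gap from 8.08 to 8.11. The increase of Tyk2 was 0.23 (SE 0.07, adjusted p = 0.0121), and without LPS array 3 it was 0.18 (adjusted p = 0.0504). Jak1, the kinase shared by most of these receptors, stayed between 10.13 and 10.27 on all 16 arrays, and its change of 0.04 had a 95% confidence interval from −0.07 to 0.15.

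Of the STAT genes, Stat3 read 9.56, 9.54, 9.55 and 9.55 on the control arrays and 10.06, 10.19, 10.15 and 10.15 on the LPS arrays. Every LPS array lay above every control array, and the mean change was 0.59 (SE 0.06, 1.50-fold, adjusted p = 9.47e-07). Stat6 moved the other way. It read 10.01, 10.11, 9.92 and 10.03 in controls and 9.63, 9.70, 9.67 and 9.57 with LPS, again without overlap. The change of Stat6 was −0.37 (SE 0.06, 1.30-fold lower, adjusted p = 4.52e-05). Stat5a lay between 7.02 and 7.35 on the 16 arrays and changed by −0.02 (95% confidence interval −0.15 to 0.12).

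Among the inhibitor genes, Socs3 rose by more than Jak2, and Cish and Socs1 rose by less. Socs3 read 4.88, 5.14, 5.42 and 5.42 in controls and 10.33, 10.41, 10.51 and 10.34 with LPS. The step was 5.18 (SE 0.14), a 36.3-fold increase (adjusted p = 2.35e-14), and 0.0744% of all genes had a larger one. Cish read 4.25, 4.15, 4.19 and 4.15 in controls and 6.28, 5.97, 6.42 and 6.40 with LPS, a change of 2.08 (SE 0.12, 4.24-fold, adjusted p = 5.81e-10). Socs1 went from 4.46, 4.71, 4.58 and 4.14 to 6.39, 6.32, 6.68 and 6.40, a change of 1.98 (SE 0.14, 3.93-fold, adjusted p = 4.62e-09). The resting levels of Cish and Socs1 stand only 0.30 and 0.59 above the 3.89 of the marker genes that macrophages lack, so their folds are taken against a level close to background. Resting Socs3, with a mean of 5.21, stands 1.33 above that median. The brightest of those markers in controls, Krt8, had a mean of 5.32, so the Socs3 fold also starts within the range of genes macrophages should lack. At least 4-fold increases past the threshold occurred in 0.638% of all genes, and Jak2, Socs3 and Cish were among them.

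The LPS response in the presence of DHA5HT was measured on the other 8 arrays, which share none with the comparison above. The spread was estimated from all 16 arrays together, so both comparisons have the same SEs. The same 7 genes passed in the same directions, 6 higher and 1 lower, where 12.4% of all genes rose and 15.7% fell, and their groups did not overlap (12.8% of all genes upward and 15.6% downward). Jak2 rose by 2.15 (SE 0.09), Tyk2 by 0.25 (SE 0.07), Stat3 by 0.53 (SE 0.06) and Cish by 2.09 (SE 0.12), while Stat6 fell by 0.37 (SE 0.06). Their adjusted p values lay between 6.96e-12 for Jak2 and 0.00630 for Tyk2. Socs3 rose by 4.77 (SE 0.14, adjusted p = 8.62e-14), against 5.18 without DHA5HT. Socs1 rose by 1.50 (SE 0.14, adjusted p = 1.7e-07), against 1.98 without it.

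**Figure D2:**
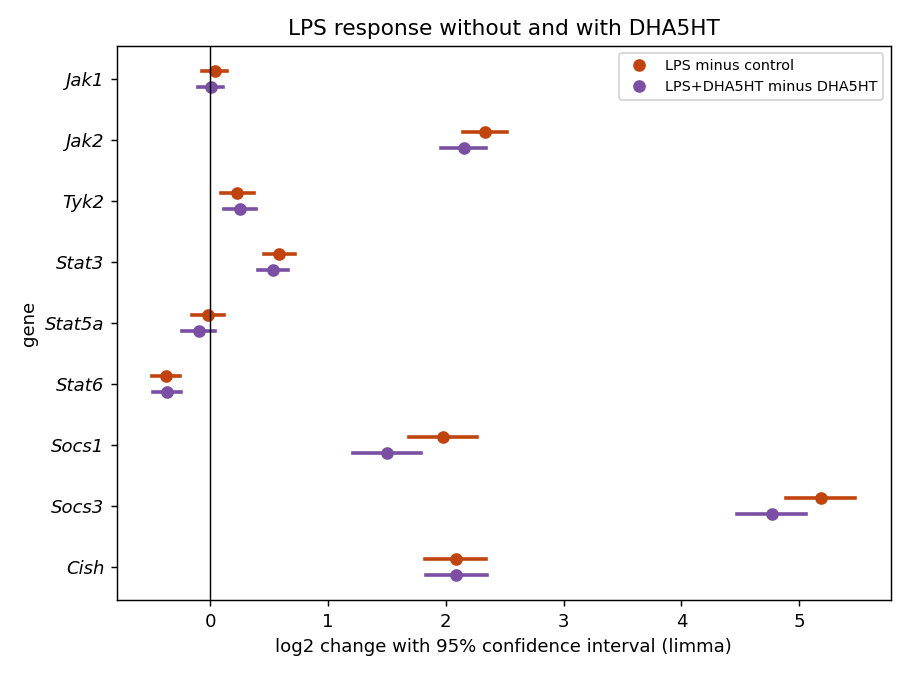
Log2 change with LPS (horizontal axis) for each of the 9 genes (vertical axis), without DHA5HT (LPS minus control) and with it (LPS+DHA5HT minus DHA5HT). Points are limma estimates from 4 against 4 arrays and lines are 95% confidence intervals; the pairs lie close together for Cish (2.08 and 2.09) and Stat6 (−0.37 and −0.37) and farther apart for Socs1 (1.98 and 1.50) and Socs3 (5.18 and 4.77).

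Whether these responses differed was tested as the interaction, the DHA5HT effect with LPS minus that without LPS. None of the 9 genes passed in limma, 1 had an unadjusted p under 0.05 (7.65% of all genes), and 0.329% of all genes passed. The differences were −0.47 for Socs1 (95% confidence interval −0.88 to −0.06, adjusted p = 0.564) and −0.42 for Socs3 (−0.83 to 0.00, adjusted p = 0.654). Without LPS+DHA5HT array 4 the Socs3 difference in limma was −0.26 (adjusted p = 0.813) and that of Socs1 −0.38 (adjusted p = 0.738). Without array 1 of that group, the Socs1 difference was larger, −0.61 (limma adjusted p = 0.227), and that of Socs3 was −0.45 (adjusted p = 0.627). For Cish the difference was 0.00, with an interval from −0.36 to 0.37, and without LPS+DHA5HT array 1 it was −0.08. The interval for Stat6 was narrower, from −0.16 to 0.17.

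The study's design sets LPS-treated cells with DHA5HT against those with vehicle, and asks what the conjugate changes there. In limma without pairing of arrays, none of the 9 genes passed the threshold in either direction, where 0.818% of all genes rose and 0.972% fell. Estimates were below 0 for 8 of the 9 genes, against 49.1% of all genes, with a median of −0.14 against 0.00. Unadjusted p values were under 0.05 for 4 of them, Stat3, Socs1, Jak2 and Socs3, each with a lower mean. Among all genes 13.7% had such a p value, and 6.73% had one with a lower mean.

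Stat3 came closest to the threshold. Its LPS+DHA5HT arrays read 9.96, 9.90, 9.96 and 9.72, each below the lowest LPS array at 10.06, and 3.91% of all genes were separated in that direction. The difference was −0.25 (SE 0.06, 95% confidence interval −0.38 to −0.12, adjusted p = 0.0507). With the replicate number as a block the adjusted p of Stat3 was 0.0445. The call also passed with an intensity trend, with genes brighter than the median gene alone, after quantile normalization and after centring (adjusted p = 0.0172 to 0.0480). It failed with array weights, with every probe set and in a fit of these 8 arrays alone (adjusted p 0.0512 to 0.178), and in all 8 fits that left out 1 array (−0.27 to −0.19, adjusted p 0.0526 to 0.146). Without LPS+DHA5HT array 4, the lowest for this gene, the difference was −0.19 (SE 0.06).

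Socs1 read 6.40, 5.76, 6.06 and 5.70 on the LPS+DHA5HT arrays. Array 1 of that group lay among the LPS arrays, which ran from 6.32 to 6.68, and the other 3 lay below all of them. The difference was −0.47 (SE 0.14, 95% confidence interval −0.76 to −0.18, adjusted p = 0.100). Without LPS+DHA5HT array 1, the array whose labels conflict, it was −0.61 (SE 0.12, adjusted p = 0.0238). Without array 4 it was −0.37 (SE 0.14, adjusted p = 0.266). The call passed in 1 of the 8 fits that left out 1 array.

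Socs3 read 10.14, 10.09, 10.35 and 9.57 with LPS and DHA5HT. Array 3 lay within the range of the LPS arrays, and array 4 lay well below the rest of its group. The difference was −0.36 (SE 0.14, 95% confidence interval −0.65 to −0.06, adjusted p = 0.244), and without array 4 it was −0.20 (SE 0.12, adjusted p = 0.531).

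Jak2 read 10.13, 10.47, 10.42 and 10.09, with arrays 2 and 3 inside the LPS range. Its difference was −0.24 (SE 0.09, 95% confidence interval −0.43 to −0.05, adjusted p = 0.215). Without LPS+DHA5HT array 1 it was −0.19 (adjusted p = 0.409), and without array 4 it was −0.18 (adjusted p = 0.456).

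For Cish the LPS+DHA5HT arrays read 6.38, 5.94, 6.20 and 5.99, and the groups overlapped over most of their range. The difference was −0.14 (95% confidence interval −0.40 to 0.12), which was −0.23 without LPS+DHA5HT array 1 and −0.10 without array 4. Tyk2 differed by −0.11 (−0.25 to 0.03), Stat5a by −0.13 (−0.27 to 0.01), Stat6 by −0.06 (−0.18 to 0.06) and Jak1 by 0.00 (−0.10 to 0.11). Without array 4 the Stat6 difference was −0.04 and that of Jak1 0.02. These intervals are not adjusted for the number of genes. They allow no more than 0.27 log2 units in either direction for those 4 genes.

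**Figure D3:**
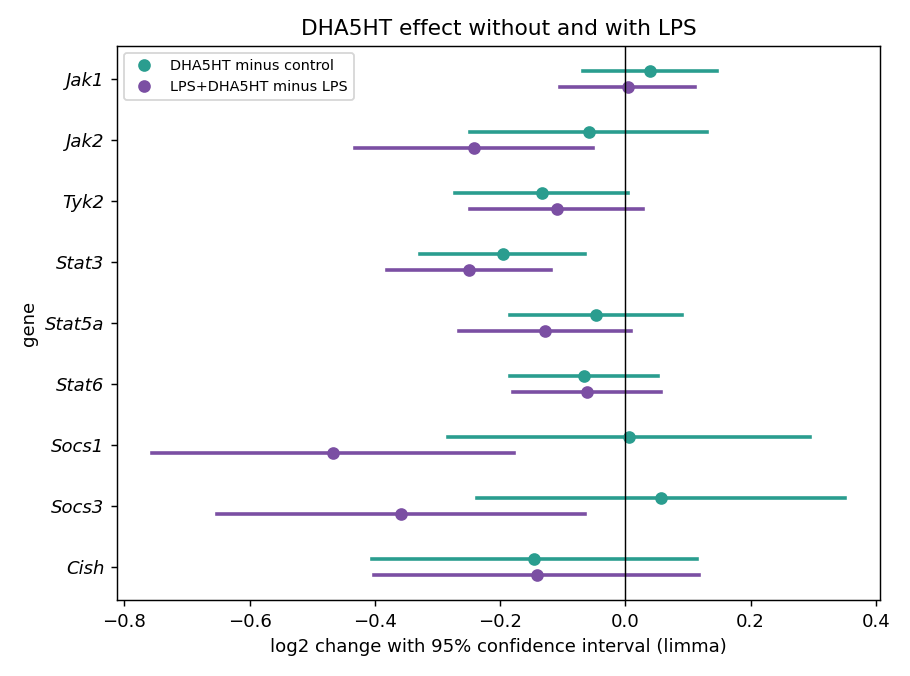
Log2 change with DHA5HT (horizontal axis) for each of the 9 genes (vertical axis), without LPS (DHA5HT minus control) and with it (LPS+DHA5HT minus LPS). Points are limma estimates from 4 against 4 arrays and lines are unadjusted 95% confidence intervals; for Stat3 both intervals lie below 0 (estimates −0.20 and −0.25), and for Socs1 and Socs3 the estimate with LPS is the lower one.

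DHA5HT without LPS left the 9 genes close to their resting levels. None passed in limma, 1 had an unadjusted p under 0.05 (9.85% of all genes, and 4.68% with a lower mean), and 0.122% of all genes rose and 0.478% fell. That gene was Stat3, which read 9.37, 9.24, 9.43 and 9.38 with DHA5HT, each below the lowest control array at 9.54. The difference was −0.20 (SE 0.06, 95% confidence interval −0.33 to −0.06, adjusted p = 0.256), and 2.85% of all genes were separated in that direction. Tyk2 differed by −0.13 (−0.27 to 0.00) and Cish by −0.15 (−0.40 to 0.11). Socs1, at 4.46, 4.55, 4.48 and 4.42, differed by 0.01 (−0.28 to 0.29), and Socs3, at 5.33, 5.11, 5.40 and 5.25, by 0.06 (−0.24 to 0.35). The remaining 4 genes differed by −0.07 to 0.04.

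The Stat3 differences with and without LPS come from separate arrays, and their own difference was −0.05 (95% confidence interval −0.24 to 0.13, adjusted p = 0.948), or 0.00 without LPS+DHA5HT array 4. Averaged over both, a comparison added after the values were seen, Stat3 was lower with DHA5HT, with a change of −0.22 (SE 0.04, limma adjusted p = 0.0105). It was the only one of the 9 genes past the threshold there, and 1.62% of all genes were called lower. The averaged call held in the 16 fits that left out 1 array (−0.24 to −0.20, adjusted p 0.0118 to 0.0270).

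Socs3 was read by a second probe set, and its test was added after the values were seen. The probe set used above, 10393449, is annotated to the RefSeq transcript, and the other, 10383010, to an older Socs3 cDNA entry. The second gave lower readings, 4.20, 4.32, 4.59 and 4.60 in controls and 8.43, 8.49, 8.63 and 8.50 with LPS, an increase of 4.08 (SE 0.11). With DHA5HT alone it read 4.86, 4.79, 4.94 and 4.74, a difference of 0.40 (SE 0.11, limma adjusted p = 0.164) where the first gave 0.06. With LPS and DHA5HT it read 8.25, 8.06, 8.28 and 7.75. Against LPS alone the difference was −0.43 (SE 0.11, limma adjusted p = 0.0633) where the first gave −0.36. It passed with the replicate block (adjusted p = 0.0405) and with the intensity trend (adjusted p = 0.0460). Of the 8 fits that left out 1 array, 1 passed (adjusted p 0.0474 to 0.172). In a limma fit over all 21218 probe sets that name 1 gene, the interaction of the second was −0.83 (SE 0.15, adjusted p = 0.0308), where 0.132% of probe sets were called lower, and that of the first −0.42 (adjusted p = 0.663). That call was kept in 6 of the 16 fits that left out 1 array (−0.89 to −0.72, adjusted p 0.0208 to 0.0786), and was lost without control arrays 1 or 2, DHA5HT arrays 1, 2 or 3, any LPS array or LPS+DHA5HT array 2. The probe sets therefore gave one direction for LPS and for DHA5HT in LPS-treated cells, and different sizes for DHA5HT alone.

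**Figure D4:**
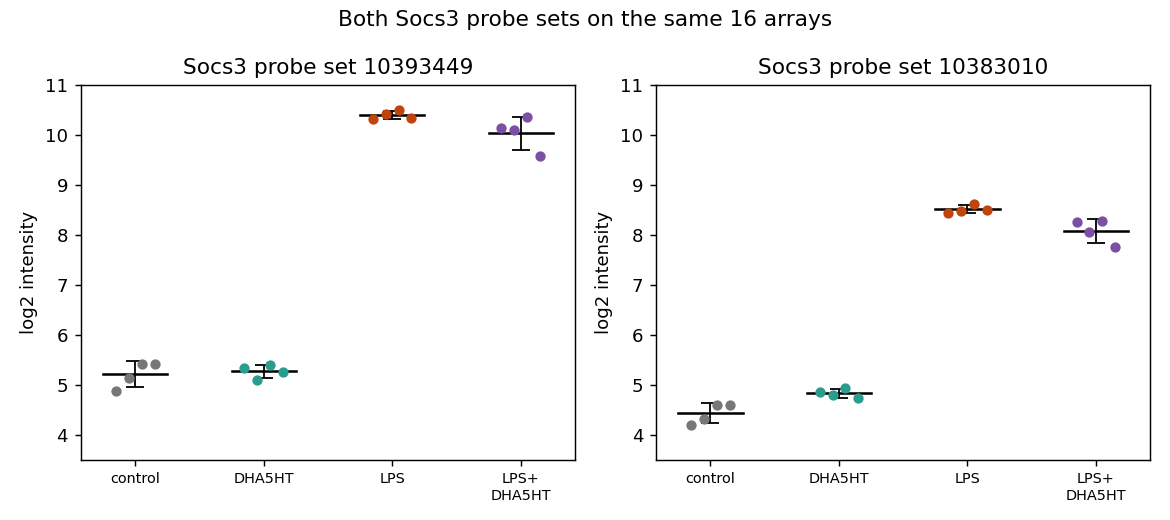
Log2 intensity (vertical axis) of both Socs3 probe sets on the same 16 arrays in the 4 groups (horizontal axis). Points are arrays, horizontal lines means and bars SD. Both step up with LPS. For probe set 10383010 the DHA5HT arrays read 4.74 to 4.94 and the control arrays 4.20 to 4.60, a difference that did not pass the threshold.

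Likeness to other genes was measured as the root mean square difference between mean-centred log2 profiles over the 16 arrays, for the 4 genes whose group means spanned at least 1. Jak2 was closest to Pcdh7 (0.13), a protocadherin gene, then to Irak3 (0.16), an inhibitor of Toll-like receptor signalling, and Ttc39c (0.17). Cish was closest to the chemokine gene Ccl4 (0.15), then to the kinase gene Pim2 and to Irak3 (both 0.20). Socs1 was closest to Pim2 (0.20), Tlr1 (0.21), a Toll-like receptor gene, and Trem3 (0.21). For Socs3 the nearest profiles were Cp, the ceruloplasmin gene (0.29), the chemokine gene Ccl7 (0.30) and the scavenger receptor gene Marco (0.32). The measure is not scaled to the size of a gene's changes, which with LPS were 5.18 for Socs3 and 2.33 for Jak2. Its values therefore do not rank the 4 genes by how unusual their profiles are.

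Lists of known ligands, receptors, brakes and targets, chosen with earlier results of these arrays known, place the 9 genes in the pathway. The counts below are read against the shares of all genes called. With LPS these were 12.6% higher and 15.8% lower. They were 0.818% and 0.972% with DHA5HT added to LPS, and 0.122% and 0.478% with DHA5HT alone. Unadjusted p values under 0.05 in limma occurred in 13.7% of all genes with DHA5HT added to LPS and in 9.85% with DHA5HT alone. Of the other STAT and SOCS genes, 9 of 10 were measured, and 2 rose and 1 fell with LPS. Socs2, a brake on growth hormone signalling, rose with LPS from 4.06 ± 0.08 to 6.02 ± 0.38, a change of 1.95 (SE 0.20, adjusted p = 6.82e-07). With its dimmest probe set the Socs2 change was 0.76 (adjusted p = 0.000509). Stat2, which carries type I interferon signals, rose by 0.64 (SE 0.14). Socs5 fell by 0.33 (adjusted p = 0.0487), and its call was kept in 1 of 8 fits that left out 1 array and was lost after quantile normalization, after centring, with every probe set and in a fit of the 8 arrays alone. DHA5HT changed none of the 9 in LPS-treated cells (1 unadjusted p under 0.05). Without LPS it lowered Irf9, a transcription factor gene of the interferon response, from 8.29 ± 0.14 to 7.54 ± 0.14, a change of −0.75 (SE 0.09, adjusted p = 0.00017).

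Of 20 measured cytokine ligands, 9 rose and 2 fell with LPS (median 0.20, against 12.6% and 15.8% of all genes). With DHA5HT added 7 fell and 0 rose (median −0.19, against 0.972% and 0.818% of all genes). The ligand genes that fell with DHA5HT by the smallest p were both subunits of IL-23, Il23a by 1.18 (SE 0.12) and Il12b by 1.80 (SE 0.18), and Lif, a ligand of the IL-6 family, by 1.18 (SE 0.18, adjusted p = 0.00258). The interactions of Il12b (−1.85, adjusted p = 0.00228) and Il23a (−1.06, adjusted p = 0.00542) passed as well, and both were kept in the 16 fits that left out 1 array.

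Among 25 measured receptor chains 10 rose and 6 fell with LPS. The IL-4 receptor chain Il4ra rose by 2.20 (SE 0.10) and the IL-23 receptor Il23r to 5.11, from a control mean of 3.34 that lies below the 3.89 of the absent markers, while Lifr fell by 1.97 (SE 0.18) and Ifngr1, a chain of the interferon gamma receptor, by 0.66 (SE 0.07). None of the 25 passed with DHA5HT in limma, with or without LPS (3 and 2 unadjusted p under 0.05).

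Of 12 phosphatases, PIAS proteins and other brakes, 3 rose and 4 fell with LPS. The PIAS genes, whose products modify STAT proteins, were split, with Pias1 (−0.54), Pias2 (−0.43) and Pias3 (−0.56) lower and Pias4 (0.27) higher. Usp18, a brake on the type I interferon receptor, rose with LPS by 1.62 (SE 0.23) and fell with DHA5HT alone from 9.03 ± 0.32 to 6.91 ± 0.55, a change of −2.13 (SE 0.23, adjusted p = 5.68e-05). In LPS-treated cells 0 of the 12 passed with DHA5HT in limma (4 unadjusted p under 0.05). The interactions of Usp18 (1.76, adjusted p = 0.0271) and Irf9 (0.63, adjusted p = 0.0434) passed, but leaving out 1 array kept them in only 7 and 4 of 16 fits, and the Irf9 interaction was also lost with quantile normalization, centring, array weights or every probe set. Of the 4 partners of the SOCS box ubiquitin ligase none passed with LPS in limma (1 unadjusted p under 0.05) or with DHA5HT in LPS-treated cells (0 unadjusted).

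Known target genes were counted for each STAT, with Socs3, Cish and Socs1 among them. Of 16 STAT3 targets 12 rose and 3 fell with LPS (median 0.95). Of 10 STAT5 targets 7 rose (median 0.75) and 1 fell, the repressor gene Bcl6, by 1.83 (SE 0.07). STAT6 targets were divided, 5 of 16 higher and 6 lower (median −0.09). DHA5HT in LPS-treated cells lowered the STAT3 targets Fos by 0.81 (SE 0.14, adjusted p = 0.00580) and Junb by 0.40 (adjusted p = 0.0262), and raised Myc by 0.51 (adjusted p = 0.0337). Leaving out 1 array kept the Fos call in all 8 fits, the Junb call in 4 and the Myc call in 3. Of the STAT5 targets Bcl6 fell by 0.45 (SE 0.07, adjusted p = 0.00186) and the cytokine gene Osm by 0.52 (adjusted p = 0.0381, kept in 1 of 8 fits that left out 1 array). Of the STAT6 targets the chemokine gene Ccl22 fell by 1.04 (adjusted p = 0.0345, kept in 3 of 8). The medians of the 3 target lists in that comparison were −0.02, −0.06 and −0.02, against 0.00 for all genes. With DHA5HT alone 1 of the 16 STAT6 targets rose, the mannose receptor gene Mrc1, by 0.72 (adjusted p = 0.00072), from a control mean of 3.40 that lies below the 3.89 of the absent markers. None of the STAT3 or STAT5 targets passed in limma with DHA5HT alone (0 and 2 unadjusted p under 0.05).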

How the data were processed

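The authors deposited log2 intensities made with RMA, per the submitters' processing notes; its version, the array annotation and any filter are not given in the sources used here. The table held 35556 probe sets on 16 arrays with no missing value, from 1.20 to 13.68. Probe sets naming exactly 1 gene (21218) were kept, and the one with the highest mean represented a gene with several, which left 18820 genes. Groups follow the sample titles. Tests used limma 3.58.1 in R 4.3.3 (4 group means, 16 arrays, 12 residual degrees of freedom, two-sided) with Benjamini-Hochberg adjustment over all genes within each of 5 comparisons. The procedure was tested on simulated data. The number of arrays limits the precision, and whether the 4 arrays of each group are separate cultures is not stated in the labels, and p values then measure only the spread between these samples, which may be technical. Members, lists and tests were chosen with earlier results of these data known. Besides the members, up to 3 genes with the smallest p per list, comparison and direction could be named, and for the 4 members spanning at least 1 log2 unit the 3 most similar profiles. Same-numbered arrays deviated together, with correlations of 0.12 to 0.20 between LPS and LPS+DHA5HT and 0.13 to 0.18 between control and DHA5HT (all over 0.1), but over all 24 same-numbered pairs the lowest was 0.07 and 19 exceeded 0.1. The titles' numbers were therefore taken to pair arrays in both DHA5HT comparisons. The main fits do not use this pairing, so their SEs and p values ignore it. A fit with the replicate number as a block was an alternative, and the blocked value is given where it changed a call. Alternatives were this block, an intensity trend, a brightness filter, repeated quantile normalization, median centring, array weights, every probe set, the compared arrays alone and leaving out each array. Promoter sequences are from RefSeq. Figures used matplotlib 3.10.9 in Python 3.11.15.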

Additional observations from a re-analysis of the deposited data

Results flagged for a closer look

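The second Socs3 probe set, 10383010, was singled out because the effect of DHA5HT on it differed between cells with and without LPS in a test of that difference, with an interaction of −0.83 (limma adjusted p = 0.0308). The 36 sets of 4 arrays (9 genes in 4 groups) were also searched for an array far from its group by Dixon's test at the 95% level, and 0 were found, where chance gives about 1 in 20.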

How the results depend on the processing

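Of 778 values of single members under other settings, 770 kept their side of the threshold, 7 passed it anew, 1 no longer passed and 0 changed the direction of a call. In LPS-treated cells the number of members lowered by DHA5HT was 0 and became 1 (Stat3) with the replicate block, with the intensity trend, with genes brighter than the median gene, after quantile normalization and after centring. Leaving out single arrays gave 0 to 1, the 1 being Socs1 without LPS+DHA5HT array 1. In the interaction the number of members called lower was 0 and became 1 when the dimmer Socs3 probe set stood for the gene. The replicate block changed no other member's call. Over all genes it raised the calls for DHA5HT in LPS-treated cells from 154 to 323 higher and from 183 to 324 lower, for DHA5HT alone from 23 to 56 higher, and in the interaction from 31 to 49 higher and from 31 to 47 lower. Fits of the compared arrays alone called 13 higher and 73 lower for DHA5HT in LPS-treated cells and 9 higher for DHA5HT alone. The brightness filter gave 288 and 37 higher in these comparisons, and the trend 51 higher in the interaction. Leaving out 1 array moved the DHA5HT counts in LPS-treated cells as low as 51 higher (without LPS array 2) and 92 lower (without LPS array 2), and the interaction counts as low as 18 higher (without LPS array 1) and 13 lower (without LPS array 2). Centring moved the split over all genes from 2376 higher and 2970 lower to 3043 and 2468 for LPS against control, and from 154 and 183 to 110 and 216 for DHA5HT in LPS-treated cells. The brightness filter removed Cish. The cause was not tested. Readings of Cish and Socs1 near 3.89 limit how well changes below their resting levels can be seen.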
